A study of Mus musculus with 6 samples.

Results

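The genes described here are 53 mouse genes of the Wnt pathway: the enzymes and carriers of Wnt secretion, the ligands, their receptors and antagonists, the R-spondin axis, the destruction complex, and transcriptional targets. They were chosen by name for their roles in the pathway, and all 53 were found among the 23337 genes of the deposited table. A mean of at least 10 normalized counts (reads divided by a library's size factor) over the 6 libraries was required for testing, and 48 members passed it. The libraries were RNA sequencing of basal cell carcinoma (BCC) cells from mouse ear epidermis. Each mouse carried R26-SmoM2/+, an activated form of the Hedgehog transducer Smoothened, and K14CreER, a tamoxifen-dependent Cre expressed from the keratin 14 promoter of basal keratinocytes. Tamoxifen was given at 4 weeks of age, and the stage label of every library is 6 weeks after it. The 3 wild-type libraries carried R26-SmoM2/+ K14CreER alone, and the 3 knockout libraries carried R26-SmoM2/+ Yapfl/fl K14CreER, so that Cre also removed the floxed Yap alleles. Recombination was limited to cells that expressed K14, and the labels do not say whether a library came from 1 animal or from a pool. The comparison asked how transcripts of the Wnt pathway differed between BCC cells with and without Yap, the co-activator restrained by Hippo kinases.

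Wnt proteins are lipid-modified in the endoplasmic reticulum by Porcn, carried to the cell surface by Wls, and bound there by Frizzled receptors with the co-receptors Lrp5 and Lrp6. Binding stops the destruction complex of Axin, Apc and kinases from degrading beta-catenin, which then acts with Tcf and Lef factors on genes such as Axin2. In skin this signal drives hair follicle formation and growth, and Wnt genes are expressed in basal cell carcinomas.

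Libraries are listed in the order 1 to 3 throughout. Yap1, the targeted gene, stood at 5765, 6004 and 5573 normalized counts in the wild type and at 591, 773 and 1764 in the knockout, so that knockout library 3 kept the most Yap1. Reads per library ran from 15405490 to 25260431. Replicate 3 of each group carried a label code beginning with DM24 and the other 4 libraries one beginning with DM22, and what the codes mark is not given in the sources used here. Both DM24 libraries had high levels of the X-inactivation RNA Xist (59594 and 58654 normalized counts, at most 15.1 in the others) and 0 reads of the Y-linked gene Ddx3y. Sex, depth and whatever else the codes mark cannot be told apart. Summed normalized counts of the basal keratinocyte markers were 428102 to 587211 in wild type and 462908 to 507244 in knockout. Within that sum Krt14 had 122119, 152009 and 130887 in wild type and 89194, 93139 and 187297 in knockout. Krt15 had 30631, 23641 and 25212 in wild type and 45344, 39434 and 20195 in knockout. Of the 6 basal markers 3 had a log2 difference, knockout minus wild type, below 0 and 3 above. The groups did not overlap for 1, Itgb4 (18259, 19926 and 16657 in wild type, 15730, 14877 and 15821 in knockout), beside 11.0% of all tested genes. The hair follicle and BCC markers, mostly Krt17, summed to 189554 to 267357 in wild type and 187593 to 260710.2 in knockout. Among them Ptch1 had 20592, 24419 and 14702 in wild type and 17218, 15070 and 11408 in knockout. DESeq2 called Ptch1 lower with the replicate number as a block (adjusted p = 0.04805, beside 1.24% of all tested genes called). It did so too with a code series term (adjusted p = 0.00529, beside 2.19%). Without a term DESeq2 did not call it (adjusted p = 0.842). No other marker of this list was called in these fits, and of its 5 markers 3 lay below 0 and 2 above. Gli1 had 16931, 18847 and 17325 in wild type and 19838, 18563 and 13955 in knockout. The 4 measured markers of differentiated keratinocytes summed to 14540 to 27736 in wild type and to 13294, 18492 and 84789 in knockout. Within that list Lor was lowest in knockout library 3 (44.3). The 7 fibroblast markers summed to 5402, 9427 and 3248 in wild type and 7188, 6182 and 1637 in knockout, a sum made mostly of Dcn. Dcn was lowest in both DM24 libraries (2193 and 1127, 5275 to 9253 in the others), whereas Col1a1 (354 and 154, 29.7 to 82.4 in the others), Col1a2, Col3a1 and Pdgfrb were highest there. Pdgfra and Lum were neither highest nor lowest in both. Pdgfra was highest in wild-type library 2 (34.5), and Lum had 3.79 in knockout library 3 and 11.8 in wild-type library 1. Lists for endothelial cells (38.3 to 97.4), leukocytes and Langerhans cells (79.9 to 129), melanocytes (124 to 317), Merkel cells (7.59 to 11.7) and muscle (81.2 to 183) were low in every library. Ptprc, Cd3e, Mlana and Atoh1 had at most 4 normalized counts in each. The part of these cell types in the values below was not tested.

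No member passed limma, the main test: 0 of 48 had an adjusted p under 0.05, beside 0 of all 13671 tested genes (0.0%). The targeted gene Yap1, with a log2 difference of −2.63, did not pass limma either (adjusted p = 0.517). It passed DESeq2 without a term (adjusted p = 1.07e-07). A gene that did not pass limma is therefore not shown to be unchanged. At an unadjusted p under 0.05 limma had 3 members, Porcn, Sfrp1 and Nkd2, beside 5.55% of all tested genes. With edgeR 0 members passed (0.0% of all tested genes) and 4 had an unadjusted p under 0.05, beside 5.57% of all tested genes. DESeq2 on the reads recovered from the table called 1 member, Porcn, lower in the knockout, and 0 higher, beside 0.527% of all tested genes in either direction and 0.351% lower. With the replicate number as a block it called Porcn and Fzd5, both lower (1.24% of all tested genes, 0.834% lower). A fit with a code series term called Porcn, Wls, Wnt6 and Fzd5, all lower (2.19% of all tested genes, 1.46% lower). In the DM22 libraries alone it called Porcn and Fzd5 lower and Sfrp1 higher (1.86% of all tested genes, 1.06% lower). Of the 48 tested members 19 lay below 0 and 29 above, and their median log2 difference, knockout minus wild type, was 0.04, beside −0.0034 for all tested genes. The groups did not overlap for 2 members, Porcn (knockout below) and Nkd2 (knockout above), beside 11.0% of all tested genes, 5.87% with the knockout below and 5.08% with it above. Log2 differences were computed by limma from log2(normalized count + 1) and are given with their standard error (SE). Adjusted p-values are Benjamini-Hochberg values, over all 13671 genes for limma and edgeR. DESeq2 adjusted over the genes it kept. It gave no adjusted p to 4 genes without a term and to 797 in the DM22 libraries alone, and these genes count as not called. In bulk RNA, fewer cells of a type and less RNA per cell cannot be told apart.

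**Figure D1:**
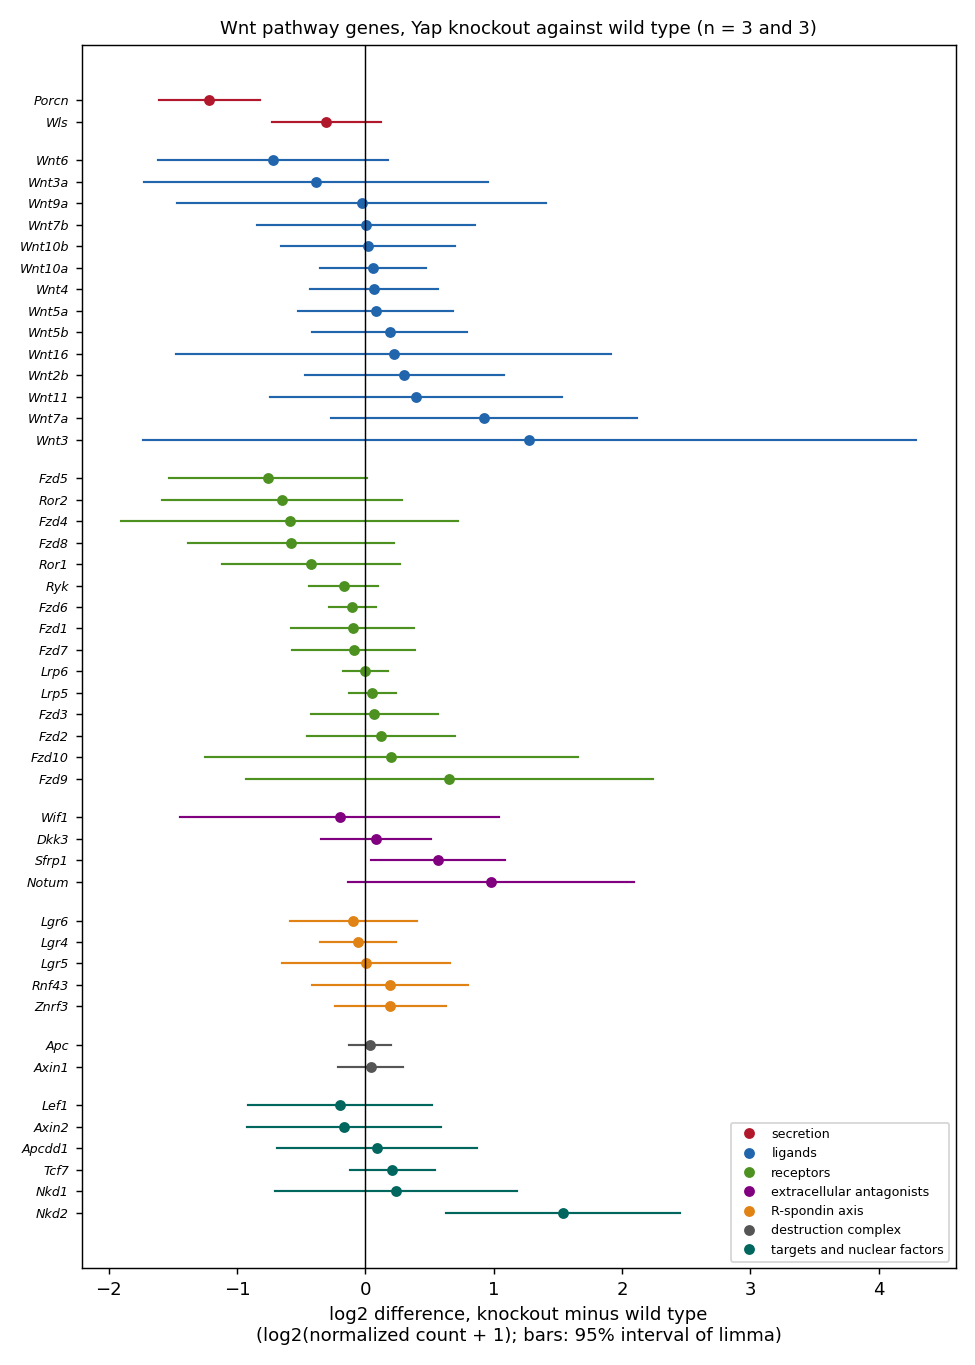
Log2 difference of each of the 48 tested members, knockout minus wild type (3 libraries against 3), by role; the points are the limma estimates and the bars their 95% intervals. The interval of Porcn lies wholly below 0 (−1.61 to −0.82), those of Sfrp1 and Nkd2 lie wholly above it, and the other 45 cross 0.

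The upstream sequences of the 3 called members with an entry among the RefSeq promoters of GRCm38.p6 are shown because Wls, Wnt6 and Fzd5 were called lower together in the DESeq2 fit with a code series term. Each is the 250 bases before the transcript's start, read 5′ to 3′ on the gene's strand: chr3:159839400-159839649 (plus) for Wls, chr1:74771642-74771891 (plus) for Wnt6 and chr1:64737751-64738000 (minus) for Fzd5.
Wls: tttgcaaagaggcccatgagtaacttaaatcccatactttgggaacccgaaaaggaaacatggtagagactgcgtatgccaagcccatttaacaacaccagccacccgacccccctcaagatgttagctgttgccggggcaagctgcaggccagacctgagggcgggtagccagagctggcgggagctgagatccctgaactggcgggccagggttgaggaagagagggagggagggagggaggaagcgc
Wnt6: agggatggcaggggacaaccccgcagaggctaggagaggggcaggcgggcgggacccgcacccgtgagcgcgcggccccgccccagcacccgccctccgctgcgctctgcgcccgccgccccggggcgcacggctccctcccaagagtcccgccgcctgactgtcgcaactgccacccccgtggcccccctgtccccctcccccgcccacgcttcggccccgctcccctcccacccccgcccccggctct
Fzd5: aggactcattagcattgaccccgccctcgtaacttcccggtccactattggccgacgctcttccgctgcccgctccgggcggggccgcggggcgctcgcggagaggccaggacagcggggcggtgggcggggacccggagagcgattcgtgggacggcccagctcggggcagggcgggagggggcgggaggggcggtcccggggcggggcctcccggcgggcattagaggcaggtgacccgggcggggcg
All letters are in lower case because none of the motifs searched on both strands was found in them. These were the TEAD core GGAATG, the AP-1 site TGANTCA and the TCF/LEF sites ATCAAAG and TTCAAAG, which do not overlap one another. They occurred in 12.6%, 6.75% and 7.48% of all 32851 promoter windows of this length. Of the 43 windows of the 35 members with an entry, 1 held the TEAD core (Lgr4), 2 the AP-1 site (Ror2 and Wnt5b) and 3 a TCF/LEF site (Sp5, Wnt11 and Wnt5b). GC content was 58.0% in the window of Wls, 79.6% in that of Wnt6 and 76.4% in that of Fzd5.

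Both secretion genes were lower in the knockout within each same-numbered pair. Porcn, the acyltransferase that attaches the lipid to Wnt proteins, had 5799, 4953 and 3860 normalized counts in the wild type and 2317, 2008 and 1899 in knockout. All 3 knockout libraries lay below all 3 wild-type libraries. The means were 4871 ± 972 (SD, n = 3) and 2075 ± 217 (SD, n = 3), a log2 difference of −1.22 ± 0.16 (SE). Its adjusted p was 0.458 with limma, 0.456 with edgeR and 4.44e-08 with DESeq2. With DESeq2 the adjusted p stayed at or below 0.000242 when any 1 library was left out. With limma it was 0.123 under the block and 0.0681 under the code series term. The differences within pairs 1 to 3 were −1.32, −1.30 and −1.02. Porcn lies on the X chromosome (X, 8193848 to 8206525, minus strand, protein coding, GRCm38), with no other annotated gene over it. Among the 4 DM22 libraries alone, where Xist was at 8.62 to 15.1 normalized counts, its mean was 5376 in wild type and 2163 in knockout (DESeq2, adjusted p = 4.98e-15).

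Wls (chromosome 3, 159839672 to 159938664, plus strand), the carrier that takes lipid-modified Wnt proteins to the cell surface, had 6000, 6697 and 4830 normalized counts in the wild type and 5416, 4991 and 3800 in knockout. Knockout library 1 lay above wild-type library 3, so the groups overlapped. Its log2 difference of −0.31 ± 0.18 (SE) had an adjusted p of 0.9997 with DESeq2 without a term, 0.262 under the block and 0.0294 under the code series term. Wls was called by DESeq2 in the fit with that term and not by limma (adjusted p = 0.258 with the same term and 0.946 without a term).

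**Figure D2:**
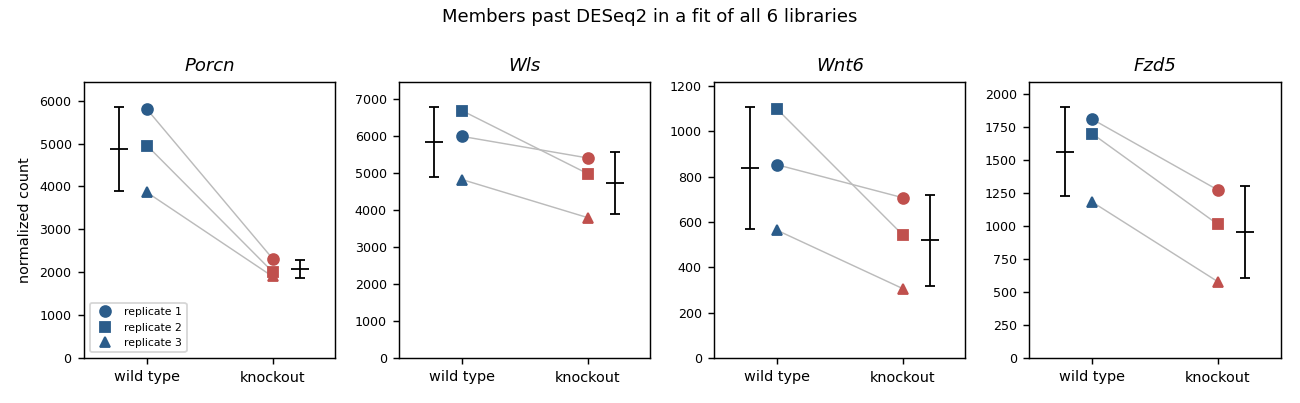
Normalized counts of Porcn, Wls, Wnt6 and Fzd5 in the 3 wild-type and 3 knockout libraries; marker shape gives the replicate, grey lines join libraries with the same number, and bars show the mean and SD. Each of the 12 lines runs downward, and the groups are apart for Porcn alone. The genes are shown because a DESeq2 fit of all 6 libraries called them lower, so the downward lines are no separate support.

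Among the ligands, Wnt6 was the 1 member called lower or higher in the knockout by any fit. Of the 14 tested ligands 3 lay below 0 and 11 above, with a median of 0.07. Per kilobase of exon, Wnt7b made up 38.6% of the summed ligand level of the wild-type libraries, Wnt10a 19.0%, Wnt4 14.7%, Wnt6 11.3% and Wnt3 8.81%. The share of Wnt6 was 7.13% in the knockout, where Wnt7b, Wnt10a, Wnt4 and Wnt3 had 39.1%, 20.3%, 15.5% and 10.2%. Wnt6 and Wnt10a are neighbours on the plus strand of chromosome 1 (74771892 to 74785322 and 74791516 to 74804179).

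Wnt6 had 852, 1098 and 563 normalized counts in the wild type and 707, 543 and 306 in knockout. Knockout library 1 lay above wild-type library 3, and the knockout was lower in each of the 3 pairs. The log2 difference was −0.72 ± 0.37 (SE), and its adjusted p with DESeq2 was 0.858 without a term, 0.0502 under the block and 0.00717 under the code series term. Its neighbour Wnt10a had 1672, 1800 and 1298 in wild type and 1662, 1936 and 1380 in knockout. The 2 groups of Wnt10a overlapped over nearly their whole range, with a difference of 0.06 ± 0.17 (SE).

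Wnt7b, the most abundant ligand per kilobase, had 5776, 9188 and 4286 normalized counts in the wild type and 7415, 7532 and 4102 in knockout. Both groups were lowest in library 3, and the difference was 0.00 ± 0.35 (SE). Wnt4 had 1548, 2582 and 2133 in wild type and 1939, 1998 and 2535 in knockout, a difference of 0.07 ± 0.21 (SE), with the knockout values inside the wild-type range.

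Wnt3 varied most among the wild-type libraries, at 476, 2220 and 61.1 normalized counts, and had 1239, 1317 and 572 in knockout. Its highest wild-type value was 36.3 times its lowest, and the knockout values lay between them, so the difference of 1.28 had an SE of 1.24. Wnt16 and Fzd10 had the same order in wild type: Wnt16 had 110, 280 and 36.4 normalized counts, and Fzd10 616, 1426 and 248. In knockout Wnt16 had 150, 108 and 111 and Fzd10 827, 683 and 590, within the wild-type range for both. Their log2 differences of 0.22 (Wnt16) and 0.20 (Fzd10) with limma were −0.21 and −0.13 with DESeq2 without a term, so their direction turned with the tool. These 2 genes were singled out after their values were seen.

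The other ligands lay below Wnt3 per kilobase. Wnt3a had 61.4, 136 and 50.7 normalized counts in the wild type and 31.2, 56.9 and 105 in knockout, and the groups overlapped (−0.39 ± 0.55, SE). Wnt11 had 24.4, 54.6 and 16.9 in wild type and 37.5, 48.6 and 29.1 in knockout, again overlapping (0.39 ± 0.47, SE). Wnt7a had 5.04, 8.62 and 11.7 in wild type and 9.81, 23.9 and 17.7 in knockout, above wild type in each pair (0.92 ± 0.49, SE; limma, adjusted p = 0.933). Mean levels of Wnt2b, Wnt5a, Wnt5b, Wnt9a and Wnt10b in wild type ran from 26.9 (Wnt2b) to 762 (Wnt5a) normalized counts, with limma differences of −0.03 to 0.30, of which those of Wnt9a and Wnt10b turned sign with DESeq2 and edgeR without a term. Wnt2 had 1.30 to 12.4 normalized counts and was not tested.

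Of the 15 receptors and co-receptors 9 lay below 0 and 6 above (median −0.10), and 5 were lower in the knockout in all 3 pairs: Fzd5, Fzd6, Fzd8, Ror2 and Ryk. Over all members 8 of 48 were lower in all 3 pairs, beside 17.3% of all tested genes, and 7 were higher in all 3, beside 15.3%. Per kilobase, Fzd7 made up 46.7% of the summed Frizzled level of the wild-type libraries, Fzd1 23.4%, Fzd6 10.3%, Fzd10 5.46% and Fzd5 5.26%. The share of Fzd5 was 3.46% in the knockout.

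Fzd5 (chromosome 1, 64730558 to 64737751, minus strand) had 1812, 1702 and 1184 normalized counts in the wild type and 1275, 1014 and 579 in knockout. Knockout library 1 lay above wild-type library 3, and the other 2 knockout libraries lay below all of wild type. The means were 1566 ± 336 (SD, n = 3) and 956 ± 352 (SD, n = 3), a log2 difference of −0.76 ± 0.32 (SE). Its adjusted p was 0.894 with limma, and with DESeq2 0.613 without a term, 0.000785 under the block and 0.000159 under the code series term. In the DM22 libraries alone it was 0.0215 with DESeq2, and without a term it passed in 0 of 6 fits that left out 1 library.

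Fzd7, the most abundant Frizzled, had 10584, 7833 and 8925 normalized counts in the wild type and 9750, 9733 and 6460 in knockout, a difference of −0.09 ± 0.20 (SE). Fzd1 had 5070, 3375 and 4237 in wild type and 4357, 4377 and 3093 in knockout (−0.10 ± 0.20, SE). For both, knockout library 3 was the lowest of the 6, and the other 2 knockout libraries lay within the wild-type range. The co-receptor Lrp5 had 5748, 5385 and 5379 in wild type and 5974, 5880 and 5299 in knockout, a difference of 0.05 ± 0.08 (SE). Its partner Lrp6 differed by 0.00 ± 0.07 (SE), with a 95% interval from −0.17 to 0.17.

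Ryk, an atypical Wnt receptor with a kinase-like domain, had 5724, 5805 and 5016 normalized counts in the wild type and 5384, 5096 and 4284 in knockout (−0.17 ± 0.11, SE). Ror2, a receptor tyrosine kinase for Wnt5a, had 425, 625 and 332 in wild type and 390, 352 and 166 in knockout (−0.65 ± 0.39, SE). Each was lower in every pair with overlapping groups, and neither passed limma, edgeR or DESeq2. Fzd4 had 46.2, 68.9 and 18.2 in wild type and 38.3, 19.0 and 22.8 in knockout (−0.59 ± 0.54, SE). The lowest Fzd4 value was a wild-type one, in library 3. Fzd9 had 39.5, 52.7 and 14.3 in wild type and 67.8, 78.3 and 22.8 in knockout, above wild type in each pair (0.65 ± 0.65, SE). The remaining receptors, Fzd2, Fzd3, Fzd6, Fzd8, Fzd10 and Ror1, had limma differences of −0.58 (Fzd8) to 0.20 (Fzd10, whose sign turned with DESeq2 and edgeR without a term), none past limma or DESeq2 without a term.

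**Figure D3:**
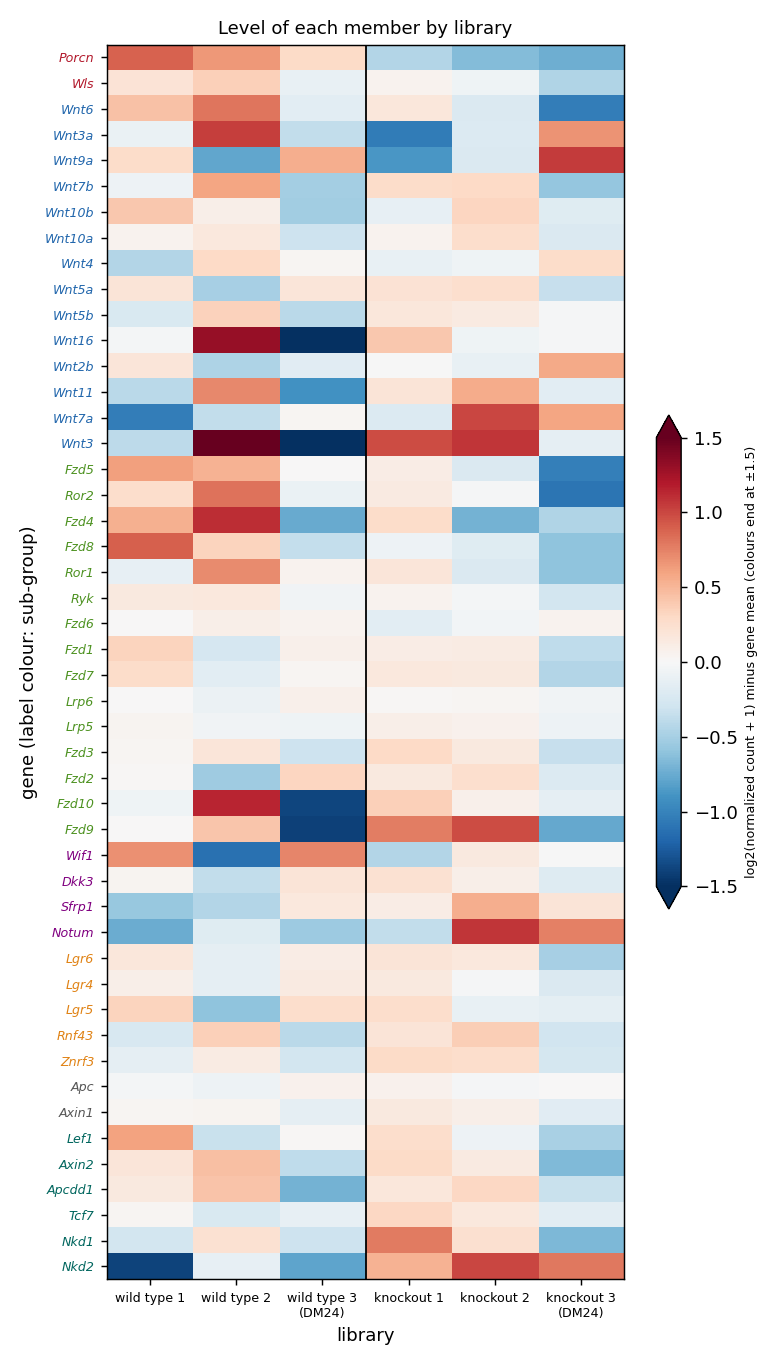
Level of each tested member in each library, as log2(normalized count + 1) minus the gene's mean over the 6 libraries, grouped by role; colours end at ±1.5. Knockout library 3 holds the lowest value of 19 of the 48 members, and Wnt3, Wnt16 and Fzd10 run from high in wild-type library 2 to low in wild-type library 3.

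The extracellular antagonists showed 3 of 4 tested members above 0 (median 0.32), and none was called by a fit of all 6 libraries. Sfrp1, a secreted protein that binds Wnts, had 1187, 1301 and 1957 normalized counts in the wild type and 1900, 2560 and 2010 in knockout. Wild-type library 3 lay above knockout library 1, and the knockout was higher in each pair, by 0.56 ± 0.21 (SE) in all. Its adjusted p was 0.885 with limma and 0.582 with DESeq2. DESeq2 called it higher without wild-type library 3 (adjusted p = 0.00278) and in the DM22 libraries alone (adjusted p = 0.00143). These fits called 226 and 254 of all 13671 tested genes. No other DESeq2 fit that left out 1 library called Sfrp1. Wif1, another Wnt-binding antagonist, had 4361, 1254 and 4538 in wild type and 2011, 3002 and 2707 in knockout. Wild-type library 2 was the lowest of the 6 and the other 2 wild-type libraries the highest (−0.20 ± 0.51, SE). Without wild-type library 2, DESeq2 gave −0.79 with an adjusted p of 0.0095, in a fit that called 228 of all 13671 tested genes. No other DESeq2 fit that left out 1 library called Wif1.

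Dkk3, a divergent Dickkopf protein, had 2820, 2119 and 3116 normalized counts in the wild type and 3209, 2913 and 2381 in knockout, with overlapping groups (0.09 ± 0.18, SE). Notum, the enzyme that removes the lipid from Wnt proteins, had 10.1, 15.3 and 11.7 in wild type and 13.4, 37.9 and 30.3 in knockout. Knockout library 1 lay within the wild-type range, and the difference of 0.98 ± 0.46 (SE) had an adjusted p of 0.925 with limma. Sfrp2 and Dkk2 were not tested, with at most 6.24 and 1.30 normalized counts, and 0 reads in a library allow up to 2.47 to 3.90 normalized counts.

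In the R-spondin axis, Lgr4, Lgr5 and Lgr6 are receptors for R-spondins, and Rnf43 and Znrf3 are the ubiquitin ligases that remove Frizzleds from the membrane. The 5 tested members had a median difference of 0.00, between −0.09 and 0.19. Lgr4 had 10573, 9046 and 10958 normalized counts in the wild type and 11004, 9841 and 8567 in knockout (−0.06 ± 0.12, SE). Lgr6 had 7769, 6300 and 7473 in wild type and 7945, 7720 and 4911 in knockout (−0.09 ± 0.20, SE). Both were lowest in knockout library 3 and highest in knockout library 1. Lgr5, also a Wnt target and hair follicle stem cell marker, had 5975, 3110 and 5704 in wild type and 5682, 4404 and 4279 in knockout (0.00 ± 0.27, SE), with the knockout inside the wild-type range. Rnf43 had 1096, 1657 and 974 in wild type and 1480, 1674 and 1062 in knockout (0.19 ± 0.25, SE). Znrf3 had 2152, 2564 and 1960 in wild type and 2882, 2837 and 1974 in knockout (0.19 ± 0.18, SE). The knockout was above wild type in each pair for both ligases, with overlapping groups. Rspo1, the ligand on the list, had at most 4.79 normalized counts and was not tested.

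The destruction complex scaffolds were close between the groups. Axin1 had 2730, 2770 and 2453 normalized counts in the wild type and 2964, 2860 and 2385 in knockout, a difference of 0.04 ± 0.11 (SE; 95% interval −0.21 to 0.29). Apc had 3821, 3708 and 4079 in wild type and 4095, 3864 and 3932 in knockout, a difference of 0.04 ± 0.07 (SE; 95% interval −0.13 to 0.20). The groups overlapped for both genes.

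Of the 6 tested targets and nuclear factors 2 lay below 0 and 4 above (median 0.15), and none passed limma, edgeR or DESeq2 with all 6 libraries. Axin2, a negative regulator and widely used readout of beta-catenin signalling, had 1084, 1305 and 735 normalized counts in the wild type and 1162, 1048 and 603 in knockout. Both groups were lowest in library 3, and the difference was −0.17 ± 0.31 (SE; 95% interval −0.92 to 0.59). Apcdd1, a membrane inhibitor that is itself a target, had 2025, 2478 and 1124 in wild type and 2060, 2275 and 1453 in knockout. Its groups overlapped, again lowest in library 3 (0.09 ± 0.32, SE). Lef1, a partner of beta-catenin on DNA, had 376, 196 and 250 in wild type and 297, 235 and 176 in knockout (−0.19 ± 0.30, SE). Tcf7, of the same family, had 1666, 1389 and 1497 in wild type and 2016, 1824 and 1459 in knockout (0.21 ± 0.14, SE). For Tcf7 2 of the 3 knockout libraries lay above all of wild type, and for Lef1 1 lay below it.

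Nkd1 and Nkd2 encode inhibitors that bind Dishevelled. Nkd1 had 120, 171 and 117 normalized counts in the wild type and 251, 172 and 91.0 in knockout, both the highest and the lowest value being in the knockout (0.24 ± 0.39, SE). Nkd2 had 12.6, 31.6 and 19.5 in wild type and 49.9, 70.1 and 60.7 in knockout. All 3 knockout libraries lay above all 3 wild-type libraries, by 1.54 ± 0.38 (SE) in all. Its adjusted p was 0.722 with limma and 0.139 with DESeq2 without a term, 0.137 under the block and 0.0833 under the code series term. Without wild-type library 2, whose Nkd2 value was the highest of its group, DESeq2 gave it an adjusted p of 0.00643. That fit called 228 of all 13671 tested genes. No other DESeq2 fit that left out 1 library called Nkd2. Sp5 had at most 7.57 normalized counts and was not tested.

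**Figure D4:**
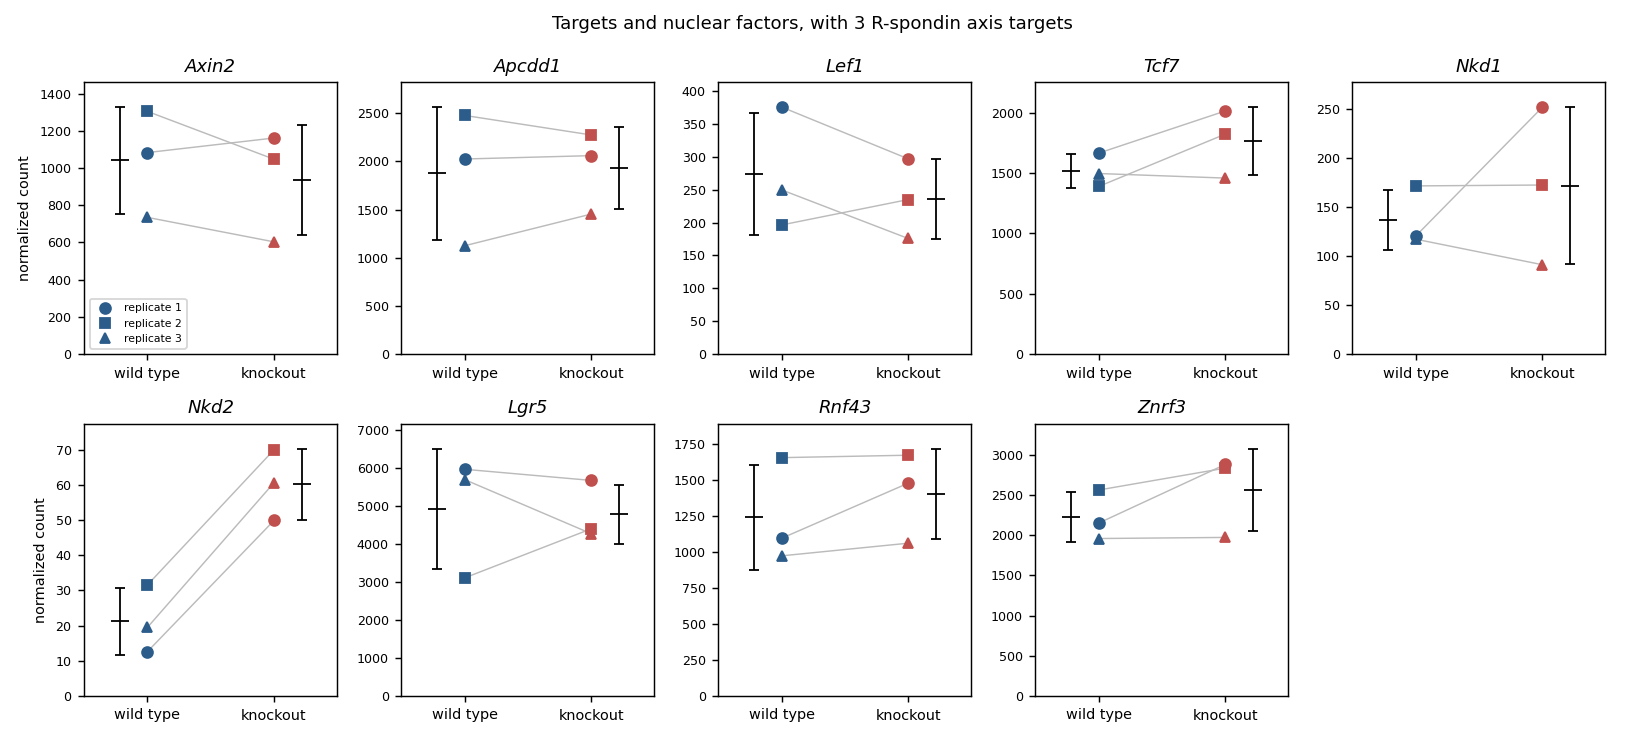
Normalized counts of the 6 tested targets and nuclear factors and of Lgr5, Rnf43 and Znrf3 from the R-spondin axis in the 3 wild-type and 3 knockout libraries; marker shape gives the replicate, grey lines join libraries with the same number, and bars show the mean and SD. Wild-type and knockout values overlap for 8 of the 9 and are apart for Nkd2, and the triangles of Axin2, Apcdd1, Rnf43, Znrf3 and Nkd1 (library 3) are the lowest in both groups.

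Members also differed between the code series, and those called were all lower in the DM24 libraries. In a fit with both terms, 35 of the 48 lay lower in DM24 than in DM22 (median −0.31), beside 50.01% of all tested genes (median −0.00017). For 35 members the absolute log2 difference between the code series was larger than that between the genotypes, beside 66.8% of all tested genes. Limma called 8 members lower in DM24 and 0 higher, beside 4.07% of all tested genes lower and 6.75% in either direction. DESeq2 called 15 lower and 0 higher, beside 8.43% lower and 14.9% in either direction. This compares 2 libraries with 4, and sex and depth differ with it.

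The 8 members came from 4 roles: secretion (Wls), ligands (Wnt6, Wnt10a), receptors (Fzd3, Fzd5, Fzd9) and targets (Axin2, Apcdd1). With limma and Benjamini-Hochberg adjustment, Axin2 was lower in DM24 by −0.78 (adjusted p = 0.0205), having 735 and 603 normalized counts there and 1048 to 1305 in the DM22 libraries. Apcdd1 had the same difference, −0.78 (limma, adjusted p = 0.0319), and Fzd9 one of −1.62 (limma, adjusted p = 0.0261). Wnt6 and Fzd5, lower in the knockout by DESeq2 with this term, were also lower in DM24, by −0.90 and −0.77 (limma, adjusted p = 0.0349 and 0.0339). Porcn differed by −0.33 between the code series (limma, adjusted p = 0.117). In the same 2 DM24 libraries Dcn was lowest, and Krt1 and Ivl, of differentiated keratinocytes, and the collagen genes Col1a1, Col1a2 and Col3a1 were highest. Krt10 and Lor, also of differentiated keratinocytes, were not highest in both. Krt10 had 8488 normalized counts in wild-type library 3 and 11106 in wild-type library 2, and Lor was lowest in knockout library 3 (44.3). The part of these markers in the code series differences was not tested.

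Knockout library 3 held the lowest value of 19 members, 39.6% of the 48, beside 22.7% of all tested genes. Wild-type library 2 held the highest value of 17 members, 35.4%, beside 23.1%. Among the wild-type libraries the highest value of a member was at the median 1.68 times its lowest, beside 1.25 for all tested genes, and the ratio passed 2 for 14 of the 48, beside 16.7% of all tested genes. An interaction of genotype and code series was called for 0 of the 48 members by limma (0.0% of all tested genes) and for 0 by DESeq2 (0.263% of all tested genes). In that fit DESeq2 gave no adjusted p to 2386 of the 13671 genes. These included the members Wnt2b, Wnt3a, Wnt5b, Wnt7a and Wnt9a, for which DESeq2 therefore gave no answer.

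**Figure D5:**
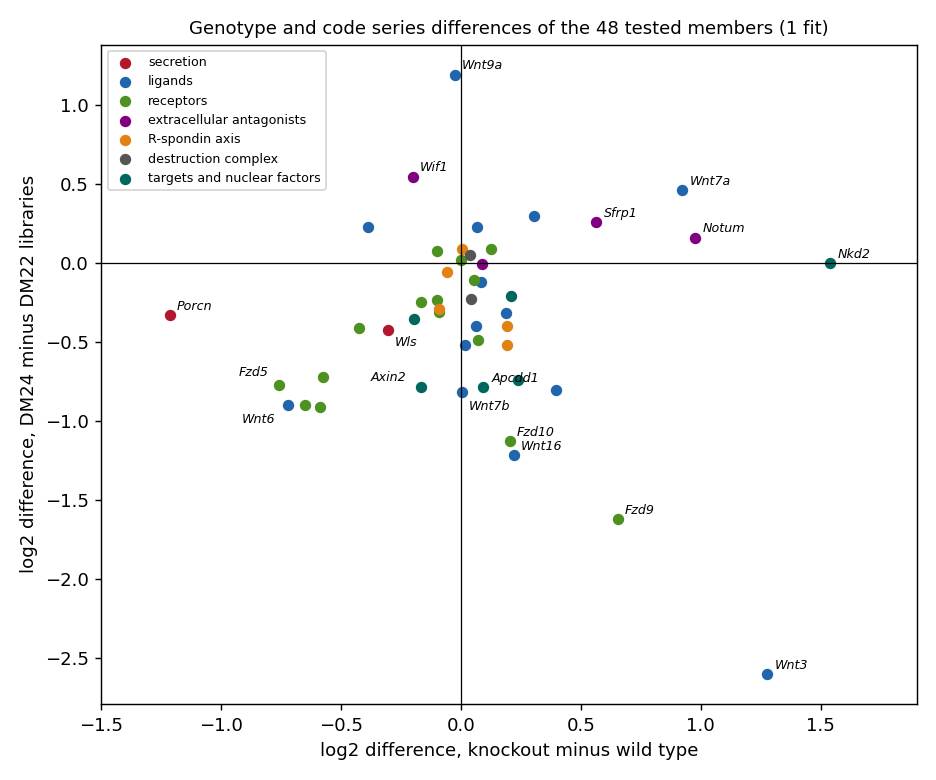
Log2 difference between knockout and wild type (horizontal axis) and between DM24 and DM22 libraries (vertical axis) of the 48 tested members, from 1 limma fit with both terms; colours give the role, and a selection of genes is labelled. Porcn stands to the left with a code series difference of −0.33, near the members' median of −0.31. Nkd2 stands to the right with one near 0, and 35 of the 48 points lie below the horizontal line.

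A further 78 genes of the pathway, none of them among the 53, were looked at, and results of the same fits were taken for 61. Trabd2b and Amer1, found under other symbols, also passed the required mean but were left out of the 61. Trabd2b had 1957, 1369 and 2110 normalized counts in the wild type and 1530, 1337 and 1502 in knockout. Amer1 had 707, 778 and 767 in wild type and 878, 730 and 604 in knockout. Of the 61 genes 28 lay below 0 and 33 above (median 0.01), 7 had groups that did not overlap (11.0% of all tested genes), and limma called 0 (0.0% of all tested genes). Among the 61, DESeq2 without a term called 1 (0.527% of all tested genes), the glypican Gpc4, a heparan sulfate co-receptor on the cell surface. Gpc4 had 4204, 3823 and 3925 normalized counts in the wild type and 3184, 2986 and 2512 in knockout, all 3 knockout libraries below all of wild type (−0.47 ± 0.10, SE; DESeq2, adjusted p = 0.0382; limma, 0.713). It passed DESeq2 in 3 of the 6 fits that left out 1 library, with adjusted p-values up to 0.680. Under the block or the series term DESeq2 also called Celsr2, a planar polarity cadherin, higher (1.24% and 2.19% of all tested genes called). Celsr2 had 7471, 7705 and 9648 in wild type and 9611, 9703 and 11799 in knockout (0.33 ± 0.13, SE), with knockout library 1 below wild-type library 3. Its adjusted p with DESeq2 was 0.689 without a term, 0.0315 under the block and 1.83e-05 under the code series term. Ctnnb1, the gene of beta-catenin itself, had 33795, 27278 and 32822 in wild type and 30691, 28649.8 and 26911 in knockout, with a difference of −0.12 ± 0.12 (SE).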

How the data were processed

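Per the labels' protocols, a TruSeq RNA kit that does not mark strand was used on column-purified total RNA. Reads of overlapping or antisense genes (over Wls, Wnt6, Wnt7b, Fzd5, Lgr5, Notum, Lef1 and Tcf7, for example) therefore cannot be told apart. Per the submitters' processing notes, the tools were STAR 2.5 and DESeq2 1.18.1, on mm10 (GRCm38). The counter, annotation and filters are not given in the sources used here. The growth protocol names 6 or 9 weeks after tamoxifen and each stage label 6.

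The authors deposited a signal of normalized counts, tested here to be whole reads divided by 1 size factor per library (100% of values whole, tolerance 0.001). Genes with a mean of at least 10 were tested with limma 3.58.1 (R 4.3.3; trend, robust prior) on log2(normalized count + 1), two-sided, 3 knockout against 3 wild-type libraries, Benjamini-Hochberg at 0.05. EdgeR 4.0.16 and DESeq2 1.42.0 were run on the recovered reads. DESeq2 used the size factors of the deposited table, a choice made after the counts of calls with re-estimated ones had been seen. The fits were tested on simulated data. The smallest exact permutation p of 3 against 3 is 0.1, so none was run. Since the labels do not say that libraries are separate animals, a p-value speaks of the spread among these libraries.

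Same-numbered libraries deviated together (correlations 0.333, 0.327 and 0.694), so the block used the labels' numbers. The correlation of knockout library 1 was higher with wild-type library 2 (0.505), and the order within DM22 rests on the numbers alone. Coordinates are from GENCODE M21 (GRCm38), exon lengths being the union of a gene's exons, and promoter windows from RefSeq GRCm38.p6. For 34 of 43 member windows the 30 bases after the start lay in a GENCODE transcript of the gene. Members and lists were chosen with earlier results of these data known. Values are given for every member called in a fit of all 6 libraries, up to 4 further members per role with the highest mean, and up to 3 others with the largest difference. Alternatives were other scalings, pseudocounts, filters, tools, terms, leaving out each library and the DM22 libraries alone.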

Additional observations from a re-analysis of the deposited data

How the results depend on the processing

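The alternatives were planned, except that the DESeq2 fits, first run with size factors re-estimated on the tested genes, were changed to the deposited size factors after those results were seen; both are given. Limma called 0 members under every scaling, pseudocount, filter, term and left-out library, and edgeR called 0. DESeq2 called 1 member without a term, 2 under the replicate block, 4 under the code series term and 3 in the DM22 libraries alone, the same members with re-estimated size factors, and 1 to 3 when 1 library was left out (limma 0). Over all tested genes DESeq2 called 72, 170, 299 and 254 in these 4 fits, or 69, 169, 303 and 268 with re-estimated size factors. Limma called 2 in the DM22 libraries alone, and with 1 library left out limma and DESeq2 called 0 to 238. For DESeq2 this count was 24 or 26 when wild-type library 1 or knockout library 2 was left out, and 226, 228 and 238 when it was wild-type library 3, wild-type library 2 or knockout library 3. Members whose groups did not overlap numbered 24 in the DM22 libraries alone (44.7% of all tested genes), 1 with a mean of at least 50 (11.0%), and 2 to 12 with 1 library left out (13.9% to 27.7%). The members' median ran from −0.044 to 0.12 with 1 library left out. Porcn was lower in the knockout in each of these fits. Directions turned for members that passed no genotype test with all 6 libraries: in the DM22 libraries alone (DESeq2, DESeq2 with re-estimated size factors, limma) Apcdd1 (−0.054, −0.045, −0.049), Fzd1 (0.048, 0.056, 0.078), Fzd10 (−0.43, −0.42, −0.32), Fzd7 (0.081, 0.089, 0.097), Lgr4 (0.087, 0.096, 0.090), Lgr6 (0.15, 0.16, 0.16), Wnt10b (−0.14, −0.13, −0.14), Wnt16 (−0.60, −0.58, −0.46) and Wnt4 (−0.069, −0.059, −0.022); with both DESeq2 fits Wnt3 (−0.076, −0.064), with limma Wif1 (0.071) and with DESeq2 Wnt7b (−0.0017). Without a term (DESeq2, DESeq2 with re-estimated size factors, edgeR) the sign also turned for Fzd10 (−0.13, −0.12, −0.12), Lgr5 (−0.042, −0.039, −0.040), Wnt10b (−0.017, −0.013, −0.011), Wnt16 (−0.21, −0.20, −0.20), Wnt7b (−0.015, −0.012, −0.0081) and Wnt9a (0.092, 0.097, 0.091), under the code series term of both DESeq2 fits for Lgr5 (−0.037, −0.034) and Wnt7b (−0.022, −0.018), and with quantile normalization for Wnt10b (−0.012). With 1 library left out, the ranges that crossed 0 were −0.24 to 0.33 for Apcdd1, −0.020 to 0.14 for Axin1, −0.40 to 0.12 for Axin2, −0.076 to 0.21 for Dkk3, −0.25 to 0.067 for Fzd1, −0.54 to 0.82 for Fzd10, −0.11 to 0.32 for Fzd2, −0.066 to 0.26 for Fzd3, −0.19 to 0.11 for Fzd7, −0.41 to 0.086 for Lef1, −0.15 to 0.035 for Lgr4, −0.30 to 0.17 for Lgr5, −0.22 to 0.13 for Lgr6, −0.041 to 0.041 for Lrp6, −0.097 to 0.63 for Nkd1, −0.81 to 0.12 for Wif1, −0.078 to 0.19 for Wnt10a, −0.24 to 0.22 for Wnt10b, −0.029 to 0.89 for Wnt11, −0.66 to 0.93 for Wnt16, −0.37 to 2.51 for Wnt3, −0.91 to 0.19 for Wnt3a, −0.13 to 0.24 for Wnt4, −0.15 to 0.27 for Wnt5a, −0.25 to 0.34 for Wnt7b and −0.64 to 0.44 for Wnt9a. The cause of these turns was not tested. Among the members, the replicate block changed only the call of Fzd5 against DESeq2 without a term. With 15405490 to 25260431 reads, members under 10 normalized counts could not be compared.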
